A study of Mus musculus with 8 samples.

Results

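Crym encodes mu-crystallin, a cytosolic protein that binds thyroid hormone and also acts as a ketimine reductase. It was examined in liver together with 7 other genes that carry, move, convert or answer thyroid hormone, namely Ttr, Serpina7, Slc16a10, Dio1, Thra, Thrb and Klf9. The 8 genes are 8 of 34836 gene names on the array, and 14 of its 55681 probes read them. All rows of the scanner files with these names that were not control spots were taken, and every probe was kept separate. The set was chosen by the strain difference of Crym, its log2 level in NZO minus that in B6 liver, and the values of the other members were known as well. The strain differences of the 8 genes are therefore given as a description with no p. Other genes of the pathway were tested, and where a list holds one of the 8 genes, its counts are also given without it.

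Liver RNA came from 4 male NZO/HiBomDife mice (NZO), an obese strain, and from 4 male C57BL/6 mice (B6), a lean strain. All 8 mice were 6 weeks old and had received a high-fat diet with 45% fat. Each RNA was labelled with Cy3 and hybridised alone to a 1-colour Agilent array, so that 1 array stands for 1 mouse. The strains differ across the whole genome, there is no group on a standard diet, and the comparison is one of strains and not of an altered Crym gene. Levels are log2 processed signals after subtraction of the 75th percentile of the array, which was an intensity of 119 to 142 in NZO and of 137 to 159 in B6. A level of 0 is thus the 75th percentile, and levels of different probes cannot be set against each other. On each array, 50.4% to 60.1% of the spots passed the scanner software's test for a signal well above background, and saturation occurred in 0 spots.

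Thyroid hormone circulates mainly as thyroxine (T4), bound to carrier proteins that the liver secretes. Membrane transporters bring it into the cell, type 1 deiodinase converts it to the active triiodothyronine (T3), and sulfation marks it for removal. In the nucleus T3 binds the receptors encoded by Thra and Thrb, of which the beta form prevails in hepatocytes, and the receptors raise some genes and lower others. Mu-crystallin holds T3 in the cytosol in an NADPH-dependent manner. In liver, Dio1 and Thrsp are well known for their strong response to T3.

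The tissue label was checked with hepatocyte markers. All 5 of them (Alb, Ttr, Apoa1, Cps1 and Tat) were well above background on all 8 arrays. Alb was the brightest, with a mean log2 level of 11.21 in NZO and of 10.94 in B6.

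Several of the 14 probes show which part of a transcript was read. Positions are those of the mm9 build named in the scanner files. An annotation of that build was not used here. The probes below were chosen to show where Dio1 and Thra were read, and the 60 bases of each are free of a stop codon, up to their last 3 bases, in at least 1 reading frame. They are printed 5′ to 3′ in lower case, and the capitals in the second mark the stop codon at its end. The first, at chr4:106979388-106979447 on the minus strand, lies upstream of the second, at chr4:106964935-106964994, on the same strand. The third crosses at least 1 exon junction of Thra, since its 60 bases span chr11:98617475-98618281.
Dio1 A_55_P2039429: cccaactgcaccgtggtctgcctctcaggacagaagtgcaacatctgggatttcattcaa
Dio1 A_55_P2046657: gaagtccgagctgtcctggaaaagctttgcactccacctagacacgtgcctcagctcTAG
Thra A_66_P102879: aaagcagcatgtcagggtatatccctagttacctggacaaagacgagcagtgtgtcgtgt

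Crym was the member with the largest difference between the strains. It was read by 1 probe, A_51_P264695, at chr7:127329970-127330029 on the minus strand, and this probe was well above background on all 8 arrays. The log2 level was 1.69, 1.94, 1.71 and 2.11 in NZO mice 007, 003, 009 and 011. It was -2.90, -2.54, -2.88 and -2.42 in B6 mice 011, 010, 015 and 009. The levels did not overlap, and the gap between the strains was far wider than the range within either. Such separation of the 4 NZO from the 4 B6 values was found for 22.4% of 20156 genes, each read at its brightest tested probe. The mean was 1.86 ± 0.20 in NZO and -2.68 ± 0.24 in B6 (SD, n = 4 each), a difference of 4.55 with an SE of 0.16, which corresponds to a 23.4-fold higher signal in NZO. Among 18194 genes above background on all 8 arrays, 6 had a more positive difference than Crym. These values chose the gene and are not a finding about it. The difference was 4.65 on slide 1, which held 1 NZO and 2 B6 arrays, 4.63 among the arrays of the first scan day and 4.35 among those of the second. It shrank to 2.95 with normexp background correction at an offset of 50, a setting that compresses dim probes, and to 3.45 in the deposited table, whose values contain the background. In bulk liver, more cells with Crym RNA and more Crym RNA per cell cannot be told apart.

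**Figure D1:**
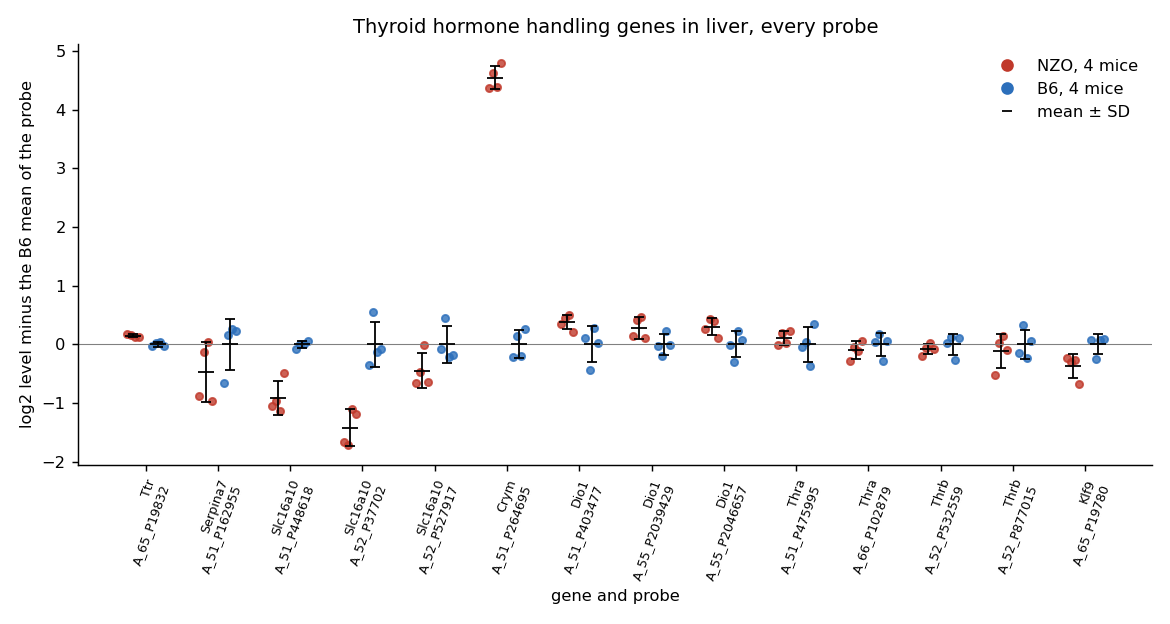
Log2 level of each of the 14 probes of the 8 genes minus the mean of the 4 B6 arrays for that probe (vertical axis), by gene and probe (horizontal axis), with 1 point per mouse and bars for mean ± SD. The 4 NZO points of Crym lie more than 4 log2 units above B6, those of Slc16a10 lie below B6 at 2 of its 3 probes without overlap, and the other probes stay within 1 unit of the B6 mean.

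The 2 plasma carriers among the 8 genes differed little. Ttr encodes transthyretin, which carries T4 and retinol-binding protein. Its log2 level was between 9.76 and 9.82 in NZO and between 9.61 and 9.68 in B6, so that the strains did not overlap although the difference was only 0.15 with an SE of 0.02. Serpina7 encodes thyroxine-binding globulin, which T3 is known to lower. Its level was -1.41, -0.66, -0.49 and -1.49 in NZO mice 007, 003, 009 and 011, and -1.19, -0.36, -0.27 and -0.31 in B6 mice 011, 010, 015 and 009. The strains overlapped, and NZO mice 007 and 011 and B6 mouse 011 lay below the other 5 mice. The difference was -0.48 with an SE of 0.34, and lay between -0.70 without B6 mouse 011 and -0.32 without NZO mouse 011. The difference of Ttr was 0.21 after median scaling and 0.06 after quantile normalization, and it was negative, -0.11, only in the deposited table, which is not scaled between arrays.

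Slc16a10 encodes an aromatic amino acid transporter that also carries T3 and T4, and its signal was lower in NZO at all 3 probes. At the brightest, A_51_P448618, the level was 0.61, 0.69, 0.52 and 1.16 in NZO mice 007, 003, 009 and 011, and 1.58, 1.66, 1.66 and 1.72 in B6 mice 011, 010, 015 and 009. No NZO mouse reached the lowest B6 mouse. The difference was -0.91 with an SE of 0.15. The probes nevertheless disagreed in size. At A_52_P37702 the difference was -1.42 with an SE of 0.25, again without overlap. At A_52_P527917 the levels lay between -3.02 and -2.38 in NZO and between -2.57 and -1.91 in B6, which overlapped, and the difference of -0.45 had an SE of 0.22 and was -0.30 without B6 mouse 010. The 2 dimmer probes depended on the background correction, since normexp gave -0.50 and -0.03 for them, while the brightest probe stayed between -1.06 and -0.80 under all alternatives.

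Dio1, the deiodinase that makes T3 from T4 in liver and a classic T3-induced gene, was slightly higher in NZO at each of its 3 probes. At the brightest, A_51_P403477, the level was 6.02, 6.12, 6.16 and 5.88 in NZO mice 007, 003, 009 and 011, and 5.78, 5.23, 5.95 and 5.69 in B6 mice 011, 010, 015 and 009. The strains overlapped because B6 mouse 015 exceeded NZO mouse 011. The difference was 0.38 with an SE of 0.17, a 1.30-fold higher signal, and it fell to 0.24 without B6 mouse 010. The 2 probes printed above gave 0.28 and 0.30, each with an SE of 0.13, so that the 3 probes agreed within their errors. In the deposited table they fell to 0.14, 0.00 and 0.00.

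The receptors showed differences near 0. For Thra, which encodes thyroid hormone receptor alpha, the difference was 0.10 (SE 0.16) at A_51_P475995 and -0.10 (SE 0.12) at the probe printed above, so that the 2 probes had opposite signs, both smaller than their errors. Thrb, which encodes the beta receptor, gave -0.08 (SE 0.10) at A_52_P532559 and -0.11 (SE 0.19) at A_52_P877015. At all 4 receptor probes the NZO and B6 mice overlapped. In the gene table of RefSeq (assembly GRCm38.p6), Thra overlaps Nr1d1, a clock gene on the opposite strand, over 1075 bases. Nr1d1 had a log2 level of 0.57, -0.16, 0.78 and -2.66 in NZO mice 007, 003, 009 and 011, and of 1.14, 0.30, 0.99 and -0.88 in B6 mice 011, 010, 015 and 009. It thus spread over more than 3 log2 units within NZO alone, and its difference of -0.75 was not called (limma, adjusted p = 0.580). Without NZO mouse 011 it was 0.01, and without B6 mouse 009 it was -1.18.

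Klf9 encodes a transcription factor that T3 and glucocorticoids induce. It was lower, not higher, in NZO, with levels of 3.87, 3.79, 3.84 and 3.42 in NZO mice 007, 003, 009 and 011 and of 4.18, 3.85, 4.18 and 4.20 in B6 mice 011, 010, 015 and 009. The strains touched, since NZO mouse 007 slightly exceeded B6 mouse 010, and the remaining mice were separate. The difference was -0.37 with an SE of 0.13. It was -0.63 in the deposited table and -0.22 with the slide as a block. The 2 members known as T3-induced genes, Dio1 and Klf9, thus had opposite signs beside the higher Crym of NZO. Both were small beside the difference of 4.55 for Crym.

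The wider pathway was read at the brightest tested probe of each gene in a limma fit over 27639 probes. A gene was called when its adjusted p was at most 0.05 and its log2 difference at least 0.7 in either direction. The background is 9.62% of probes, and at the brightest probe of 20156 genes it is 9.43%, with 4.45% higher and 4.99% lower in NZO. The median log2 difference of these genes was 0.03. Of the 37 genes in the lists of carriers, transporters, metabolism, receptors with cofactors and T3-lowered targets, 34 were tested, 1 was called higher and 6 were called lower in NZO, with a median of -0.01. Without the 6 members among them, 28 genes were tested, 1 was called higher and 5 were called lower.

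Among 10 membrane transporters, none was called higher and 3 were called lower in NZO, and the median difference was 0.02. Slco1c1 was above background on all 4 B6 but only 3 NZO arrays, and so was tested through B6 only. These values and the counts of the whole pathway include Slco1c1, and no test is drawn from it. Without Slc16a10, 2 of 9 were called, beside 9.43% of all genes. Slc7a8, the light subunit of an amino acid transporter that also takes up T3, had levels of -1.86, -2.29, -2.05 and -1.83 in NZO mice 007, 003, 009 and 011, and of -0.52, -0.76, -0.49 and -0.80 in B6 mice 011, 010, 015 and 009. The strains were well apart, with a difference of -1.37 ± 0.14 (SE; limma, adjusted p = 0.000336). Slco1a4, an organic anion transporter of the hepatocyte, differed by -0.92 ± 0.22 (SE; limma, adjusted p = 0.0253). That call was lost when NZO mouse 003, 007 or 011 or B6 mouse 009 or 015 was left out, with adjusted p values of 0.0670, 0.0507, 0.0661, 0.0729 and 0.0691, and with no filter (adjusted p = 0.0693). With normexp the differences of Slc7a8 and Slco1a4 shrank to -0.60 and -0.54, below the limit on the fold. The bile acid transporter Slc10a1 and the transporters Slco1b2 and Slco1a1 had differences of -0.02, 0.06 and 0.08 and were not called. The 2 probes of Slc10a1 had opposite signs, -0.02 and 0.29.

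Of 8 genes for deiodination and conjugation, 5 were tested, of which 1 was called higher and 1 lower, with a median of 0.17. Without Dio1, 2 of 4 were called, beside 9.43% of all genes. The sulfotransferase Sult1a1 had levels from 4.72 to 5.56 in NZO and from 6.17 to 6.66 in B6. Its difference was -1.24 ± 0.19 (SE; limma, adjusted p = 0.00350), and its second probe gave -1.20. Sult1b1, which sulfates iodothyronines, moved the other way, from 3.79 to 4.36 in NZO and from 3.11 to 3.40 in B6. Its difference was 0.79 ± 0.14 (SE; limma, adjusted p = 0.00667), and it fell to 0.69 without NZO mouse 003 and to 0.58 in the deposited table, both below the limit on the fold. With the slide as a block it was larger but not called (adjusted p = 0.0604). Besides Dio1, the iodotyrosine deiodinase Iyd (0.17) and the selenocysteine insertion factor Secisbp2 (-0.11) were not called. Dio2 was not well above background on any array, Dio3 was above background in 2 NZO mice and in none of the B6 mice, and Ugt1a1 was not matched to a probe.

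Of 13 receptors and cofactors, none was called higher and 1 lower, and the median was -0.03. Without Thra and Thrb, 1 of 11 was called, beside 9.43% of all genes. The exception was Med1, a Mediator subunit that the receptors recruit, and its 4 probes disagreed. The brightest, A_55_P2092501, read -1.50 ± 0.11 (SE; limma, adjusted p = 8.01e-05), while the other probes read 0.32, 0.07 and -0.31 and were not called. The mean over the 4 probes was -0.35, below the limit on the fold. Rxrb, Ncoa3 and Rxrg were among the brightest of the genes not called, with differences of 0.17, -0.03 and 0.28. Probes of Ncor1, Ncoa1 and Ncoa3 also differed in sign, all of them with differences of at most 0.10 in size.

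**Figure D2:**
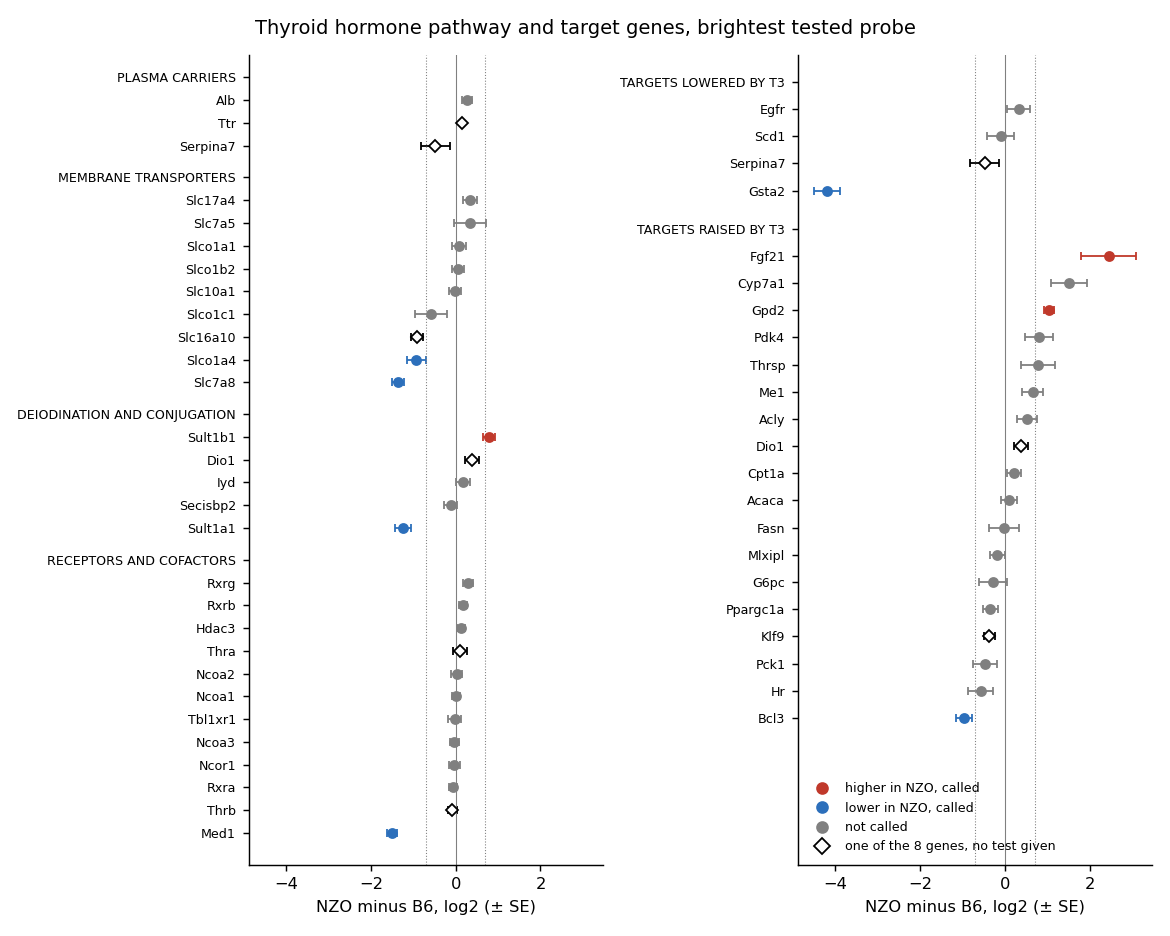
NZO minus B6 in log2 units with its SE (horizontal axis) for genes of the pathway lists (left) and of the target lists (right), read at the brightest tested probe, with dotted lines at a log2 difference of 0.7 in either direction. Diamonds are the genes described without a test, with the SE of the 2 means, and circles the genes tested with limma. Most genes lie between the dotted lines, while Gsta2 lies at -4.20 and Fgf21 at 2.45.

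The question of whether T3 targets followed Crym was put to 19 genes known to be raised by T3, Dio1 and Klf9 among them. 2 of the 19 genes (Gpd2 and Fgf21) were called higher in NZO, 1 (Bcl3) was called lower and 16 were not called. Over all genes, 4.45% were called higher and 4.99% lower. The median difference was 0.11, beside 0.03 over all genes, and 11 genes had a positive and 8 a negative difference. Hr, among the 16 and the 8, was tested only because it was above background on all 4 B6 arrays. The calls and the signs of the list thus went both ways. Without Dio1 and Klf9, 3 of 17 genes were called, beside 9.43% of all genes, and the median was again 0.11.

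Gpd2 encodes the mitochondrial glycerol-3-phosphate dehydrogenase, a textbook T3 target of the liver. Its level was 2.13, 2.49, 2.50 and 2.12 in NZO mice 007, 003, 009 and 011, and 1.27, 1.26, 1.28 and 1.28 in B6 mice 011, 010, 015 and 009. Every NZO mouse was above every B6 mouse, with a difference of 1.04 ± 0.12 (SE; limma, adjusted p = 0.000744). The call held without each mouse in turn and was lost with the slide as a block (1.22, adjusted p = 0.0624).

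Fgf21 encodes a hormone of fasting and fat metabolism. Its level was 0.65, 0.20, 0.84 and -1.71 in NZO mice 007, 003, 009 and 011, and -1.33, -2.08, -3.53 and -2.88 in B6 mice 011, 010, 015 and 009. NZO mouse 011 lay within the range of B6. The difference of 2.45 ± 0.65 passed narrowly (SE; limma, adjusted p = 0.0402). The call was lost without NZO mouse 003, 007 or 009 or B6 mouse 009, 010 or 015, with adjusted p values of 0.0939, 0.0887, 0.0921, 0.103, 0.0749 and 0.0950. It was also lost with no filter (adjusted p = 0.0950). The difference shrank to 1.35 with normexp and to 1.59 in the deposited table, and the call held in both.

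Bcl3, a transcriptional coactivator, was the gene called in the opposite direction. Its level was 3.62, 3.52, 3.73 and 3.90 in NZO mice 007, 003, 009 and 011, and 5.08, 4.20, 4.73 and 4.60 in B6 mice 011, 010, 015 and 009. The strains did not overlap, and the difference was -0.96 ± 0.19 (SE; limma, adjusted p = 0.0104). With the slide as a block it was -0.94 and not called (adjusted p = 0.156).

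Cyp7a1, the rate-limiting enzyme of bile acid synthesis, and Pdk4, a kinase that restrains pyruvate oxidation, passed with the unadjusted p only and were singled out after their values had been seen. By that rule 5 of the 19 targets passed, beside 11.9% of all genes. Cyp7a1 ranged from 1.76 to 3.14 in NZO and from -0.33 to 1.50 in B6, without overlap. Its difference of 1.52 ± 0.43 just missed the limit (SE; limma, adjusted p = 0.0506), and it passed in 8 of 24 alternatives, among them without B6 mouse 015 (adjusted p = 0.0381), after median scaling (adjusted p = 0.0330) and with normexp (adjusted p = 0.0308). Pdk4 gave 0.80 ± 0.32 (SE; limma, adjusted p = 0.150).

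Thrsp, which is strongly induced by T3 and carbohydrate, had levels of 6.48, 6.54, 6.23 and 7.54 in NZO mice 007, 003, 009 and 011, and of 5.28, 5.31, 6.66 and 6.40 in B6 mice 011, 010, 015 and 009. A pair of B6 mice reached the NZO range, and the difference of 0.78 ± 0.40 was not called (SE; limma, adjusted p = 0.252) and fell to 0.50 without NZO mouse 011. Malic enzyme, Me1, was read by 3 probes with differences of 0.65, 1.01 and 0.42, of which only the second was called (limma, adjusted p = 0.0159). At the brightest, NZO mice 003 and 011 had levels of 4.78 and 4.73 and NZO mice 007 and 009 had 3.73 and 3.96, beside 3.42 to 3.76 in B6. Without NZO mouse 007 that probe was called too, with 0.84 (adjusted p = 0.0429). Acly gave 0.51, Fasn -0.02, Acaca 0.09 and Mlxipl -0.18, and none of them was called.

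Gluconeogenic and other targets were not called in either direction. Pck1 and G6pc, which encode key enzymes of gluconeogenesis, gave -0.47 and -0.28. The carnitine palmitoyltransferase gene Cpt1a gave 0.21 and Ppargc1a -0.35, with 0.03 at its second probe. Hr, a corepressor gene, was above background in 3 of 4 NZO mice and was thus tested through B6 only. No test is drawn from its difference of -0.58, although the counts of the list include it.

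**Figure D3:**
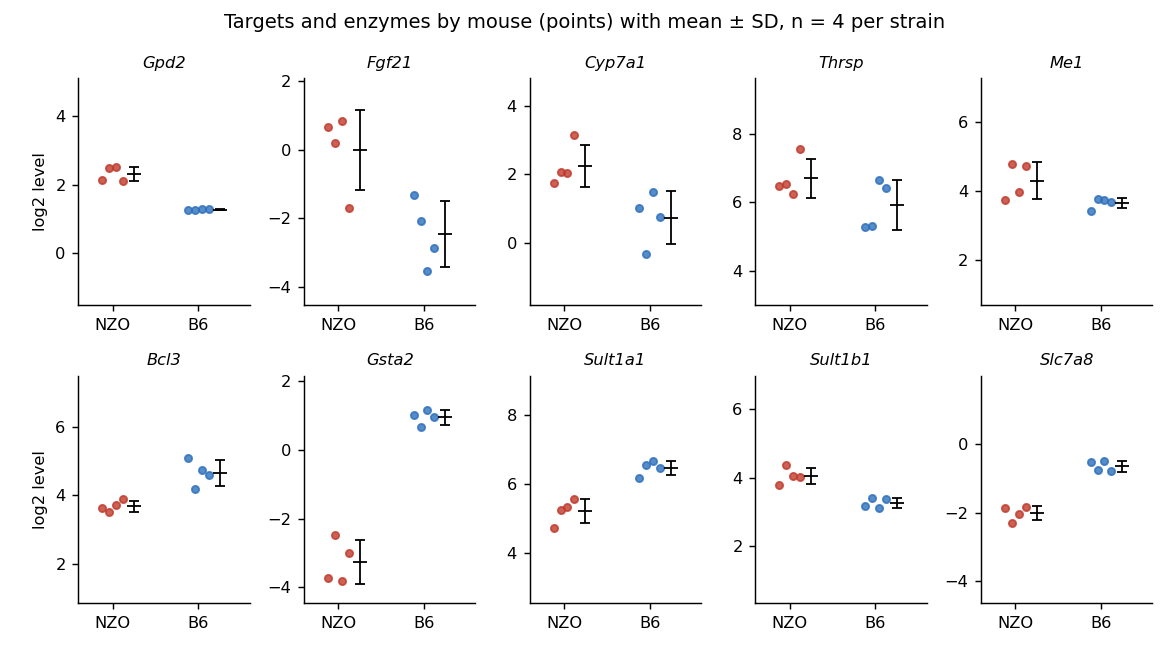
Log2 level (vertical axis) of 10 T3 targets, conjugating enzymes and transporters at the brightest tested probe, with 1 point per mouse and mean ± SD at the side for the 4 NZO and the 4 B6 mice. Every panel spans the same number of log2 units. NZO and B6 overlap for Fgf21, Thrsp and Me1 and are separate for the other 7 genes. Such separation was found for 22.4% of 20156 genes. Most genes shown here were called, so the count is not a result about the pathway.

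Of 4 genes known to be lowered by T3, none was called higher and 1 was called lower, with a median of -0.29. This was Gsta2, a glutathione transferase, whose level was -3.74, -2.46, -3.82 and -2.99 in NZO mice 007, 003, 009 and 011, and 1.02, 0.66, 1.17 and 0.94 in B6 mice 011, 010, 015 and 009. The gap between the strains was wider than the range within either. The difference was -4.20 ± 0.30, an 18.4-fold lower signal in NZO (SE; limma, adjusted p = 5.69e-05). It stayed called under all 24 alternatives, with values from -4.47 to -2.15, the latter with normexp. The signal in NZO mice 007 and 009 lay near the lowest level well above background on their arrays, -4.13 and -4.23. The size of the fold therefore depends on the background correction. Whether the probe of Gsta2 also read the near-identical Gsta1 was not tested. The stearoyl-CoA desaturase gene Scd1 gave -0.10 and the EGF receptor gene Egfr 0.32, and neither was called. Without Serpina7, described above, 1 of 3 genes of the list was called, beside 9.43% of all genes.

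The mice also differed within a strain. NZO mouse 011 had the highest Crym, Cyp7a1 and Thrsp of the 4 NZO mice and, at the brightest probe, the highest Slc16a10. It had the lowest Klf9, Serpina7, Fgf21 and Nr1d1 of these mice and, at all 3 probes, the lowest Dio1. A relation between Crym and its targets across mice within a strain was not tested.

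Promoter windows of RefSeq (250 bases before to 50 after the gene start, GRCm38.p6) were searched for the thyroid receptor half-site AGGTCA on both strands. Of 5 members with an entry (Dio1, Thrb, Slc16a10, Klf9 and Serpina7), 1, Thrb, held it in a window. Of 19 genes on the lists of T3 targets with an entry, 3 (G6pc, Cpt1a and Acly) held it, beside 18.1% of all 27025 genes with an entry. None of these 3 genes was called between the strains.

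By the pattern over the 8 arrays, the probes most like Crym were those of Prelid2, Nt5e and 1500011B03Rik, a probe without a gene name (A_55_P2055423) and the probe of Hddc3. The measure was the root mean square distance to the Crym probe after subtraction of the mean of each probe, over 8 arrays and among 18193 genes above background on all of them. It was 0.22 for Prelid2, 0.26 for Nt5e, 0.30 for 1500011B03Rik, 0.33 for the unnamed probe and 0.43 for Hddc3. Prelid2, a gene of a lipid transfer protein family, had means of 1.85 in NZO and -2.48 in B6. The distance mostly reflects a strain difference of like size, which was 4.33 for Prelid2, 4.28 for Nt5e, 4.30 for 1500011B03Rik, 4.44 for the unnamed probe and 3.83 for Hddc3. The other 7 members lay at distances from 2.11 for Dio1 to 2.73 for Slc16a10. A second probe of 1500011B03Rik differed by 1.44.

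Markers of other cell types were read on the same arrays, since skeletal muscle and kidney also contain Crym RNA. The 6 skeletal muscle markers summed to 16.8 times the 75th percentile in NZO mouse 007 and to 5.62 in B6 mouse 010, against 0.215 to 1.44 in the other 6 mice. Myh4 was the brightest of them. The 3 markers that passed the filter on dim probes (Myh4, Acta1 and Tnnt3) did so through B6 only, and no test is drawn from them. Crym was 1.69 in NZO mouse 007, the lowest of its strain, and -2.54 in B6 mouse 010, the second highest of its strain. Without NZO mouse 007 and B6 mouse 010, a setting chosen after the markers had been seen, the difference of Crym was 4.65, and Gpd2, Bcl3, Gsta2, Slc7a8, Sult1a1 and Sult1b1 were still called. Fgf21 and Slco1a4 were not called in that setting, with 2.35 (adjusted p = 0.134) and -1.01 (adjusted p = 0.0728), and Pdk4 was called with 1.23 (adjusted p = 0.0316).

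Of 5 kidney markers, Umod was not above background on any array, and the sum of the list was 0.603 to 1.69 in NZO and 0.629 to 1.17 in B6. Aqp2 was the brightest of them and was not called. All 4 red blood cell markers had positive differences, with a sum of 293 to 470 in NZO and of 155 to 208 in B6. Hba-a1 (1.01) and Alas2 (0.90) were called (limma, adjusted p = 0.0181 and 0.00230). The call of Hba-a1 was lost without B6 mouse 010 or 015 (adjusted p = 0.0550 and 0.0527), after quantile normalization (0.0530), with no filter (0.0512), in the deposited table (0.0578) and with the slide as a block (0.98, adjusted p = 0.272). That of Alas2 was lost in the deposited table, where 0.66 lies below the limit on the fold, and with the slide as a block (1.06, adjusted p = 0.116). Among 5 leukocyte markers, 2 had a positive and 3, Itgax among them, a negative difference. The brightest, Cd3e, gave 0.33, with a level of 3.61 in NZO mouse 007 and of 2.07 to 2.47 in the other NZO mice. Lyz2 gave 0.41, Ptprc -0.51 and Cd68 -0.42, and neither these nor Cd3e were called. Cd68 did not overlap between the strains, but its difference lay below the limit on the fold (limma, adjusted p = 0.0448). Itgax passed the filter on dim probes through B6 only, and no test is drawn from it. Its level was -2.42, -4.20, -3.37 and -5.13 in NZO mice 007, 003, 009 and 011, of which 2 were above background, and between -1.94 and -1.18 in B6. Adipoq, Plin1 and Lep, the defining adipocyte markers, and 4 of 6 pancreas markers were not above background on any array. The brightest of these lists were Car3, with a difference of 0.47, and Ctrb1, with 0.37, and neither was called. Of the other tested markers, the adipocyte markers Cidec and Fabp4 gave 0.42 and -0.30. The pancreas marker Cela1 gave -0.53, and none of them was called. Car3, Cidec, Fabp4, Ctrb1 and Cela1 were above background on every array, so both lists held markers with positive and with negative differences. The part of red blood cells and leukocytes in the strain differences was not tested.

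**Figure D4:**
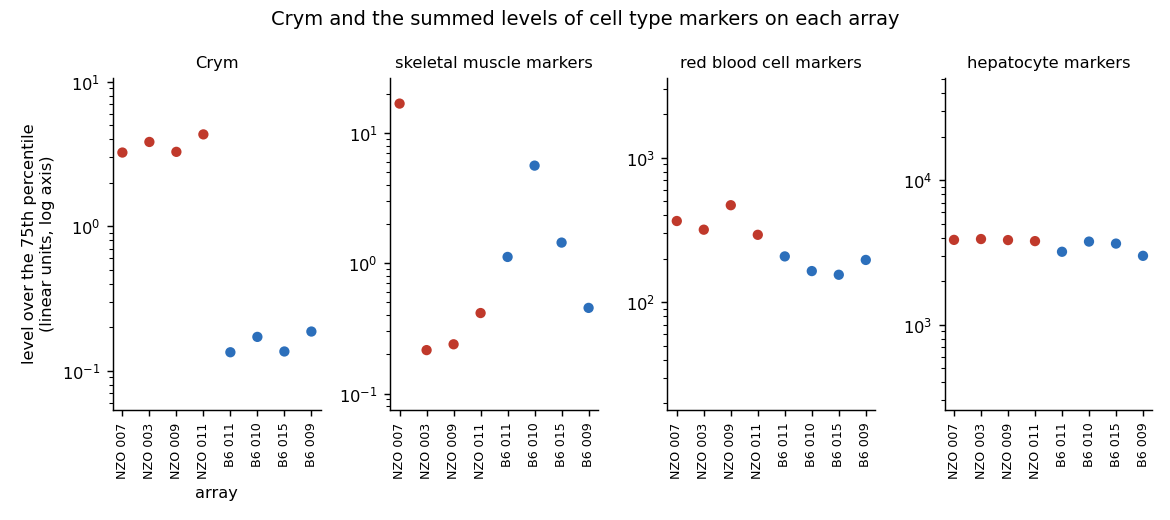
Signal of Crym and summed signal of the skeletal muscle, red blood cell and hepatocyte markers on each array (NZO red, B6 blue), as multiples of the 75th percentile of the array on log axes. Muscle markers peak in NZO 007 (16.8) and B6 010 (5.62) and lie between 0.215 and 1.44 on the other arrays.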

How the data were processed

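The authors deposited the Agilent scanner output of each array and 1 table. Per the file headers, Feature Extraction 11.0.1.1 made the intensity columns (the labels name version 9.1), and its processed signal is background-subtracted and not scaled between arrays. The deposited table equalled the raw median intensities for all 59305 spots of each array (tolerance 0.01) and was used as an alternative only. Control and outlier spots were left out, log2 of the processed signal was centred on the 75th percentile of each array, and spots of a probe were averaged. Probes well above background on all 4 arrays of a strain were tested with limma 3.58.1 in R 4.3.3 (Benjamini-Hochberg adjustment), and Python 3.11.15 made tables and plots. The study's methods name limits of 0.05 for p and 0.7 for the log2 fold change and a test with Welch correction. The SE of a member is that of the 2 means. Probes were designed on the reference genome, and NZO sequence was not used here.

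The members and lists were chosen with earlier results of these data known. Named were all members, every called gene of a list, up to 4 of its brightest genes not called, genes whose probes disagreed, Nr1d1, the 5 genes most like Crym, and the brightest and the called markers. The other tested leukocyte, adipocyte and pancreas markers and Slco1c1 were named as well. For 3 listed genes no values are reported here, although list totals include them. Whether the mice shared litters is not stated.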

Additional observations from a re-analysis of the deposited data

Results flagged for a closer look

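In groups of 4 mice, a mouse was picked out where its gap to the nearest mouse took up more of the range of the group than the critical value of Dixon's test at the 95% level allows. This happened in 4 of 62 groups examined, and chance alone picks about 1 in 20. Klf9 was low in NZO mouse 011 (3.42, next 3.79) and in B6 mouse 010 (3.85, next 4.18). Serpina7 was low in B6 mouse 011 (-1.19, next -0.36). The leukocyte marker Itgax was high in B6 mouse 015 (-1.18, next -1.92).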

How the results depend on the processing

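Of 24 alternatives, 1 was added after the data had been seen. The difference of Crym was 4.46 to 4.63 without each mouse in turn, moved beyond the spread between mice with normexp (2.95) and in the deposited table (3.45), and lay between 4.46 and 4.65 otherwise. The 2660 called probes became 1194 with normexp, 1488 with the slide as a fixed block, 1721 with the methods' Welch-corrected test after adjustment (2897 without) and 206 with the mouse number as a replicate block, and 2335 to 2664 without each mouse. The deposited table called 575 probes higher and 1420 lower in NZO, against 1204 and 1456 from the scaled values, and it shifted the median of all probes to -0.15. The 3 T3-raised targets became 0 with the slide as a fixed block, 0 with the replicate block, 1 with the adjusted Welch test and 5 with the unadjusted p. They were 4, Cyp7a1 added, in the deposited table, with the mean over probes, after median scaling, with normexp and with probes above background on all 8 arrays, and they were 2 or 3 without each mouse. The 7 pathway genes became 4 with the slide as a fixed block and 1 with the replicate block, and were 5 to 7 without each mouse. With the slide block, Gpd2, Bcl3, Sult1b1, Alas2 and Hba-a1 lost their calls as given beside them, as did Fgf21 (adjusted p = 0.252) and Slco1a4 (-1.18, adjusted p = 0.215), while their differences stayed above 0.9 in size. The slide block compares 1 NZO with 2 B6 arrays, the only slide with both strains. Only 2 mouse numbers, 009 and 011, occur in both strains, and the labels do not tie them. Deviations of mice with the same number correlated at -0.26 and 0.00 across probes. With only 2 such numbers, this cannot settle whether they pair the mice, and the main fit used no pairing. Dim probes limit what can be read.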
